A study of Mus musculus with 2 samples.

Results

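Genes that encode general splicing factors and their regulators were examined in total RNA from mouse cells labelled megakaryocyte, the large marrow cells that shed platelets. They were taken as every protein-coding gene in GENCODE M21 whose symbol begins with Srsf, Hnrnp, Sf3a, Sf3b, Snrp or U2af, a rule that uses no measured value. This gave 55 of 21461 nuclear protein-coding genes, namely 11 Srsf, 20 Hnrnp, 3 Sf3a, 6 Sf3b, 12 Snrp and 3 U2af genes. The study has 2 libraries in 1 group, so it holds no contrast between conditions. Both come from male C57BL/6J mice, adults 5 to 6 weeks old, as primary cells with no transgene or treatment named, and both name the same donor although they are numbered as biological replicates. Each was made from 100 ng of RNA depleted of ribosomal RNA, by the ScriptSeq method, and the labels give a size range of 221 to 1000 nucleotides (library 1) and of 200 to 1000 nucleotides (library 2).

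The spliceosome removes introns from newly made RNA. Small nuclear ribonucleoproteins (snRNPs) recognise the intron's ends, the U2AF proteins bind at its 3′ end, and the SF3A and SF3B complexes hold U2 snRNP on the branch point. SR proteins (Srsf genes) mostly promote the use of nearby splice sites and heterogeneous nuclear ribonucleoproteins (Hnrnp genes) often repress it. Many of these genes also act on their own RNA: they include an exon with a premature stop codon, or keep an intron, and the resulting transcripts are destroyed by nonsense-mediated decay (NMD) or stay in the nucleus. In mouse marrow, retained introns are known to become more frequent as granulocytes mature, and in human myeloid neoplasms SF3B1, SRSF2 and U2AF1 are recurrently mutated.

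Expected counts, the estimated reads per gene, summed to 42703213 for library 1 and 50532821 for library 2, and these 55 genes held 542297 and 652594 of them. Markers went against the label. Of 14 megakaryocyte genes, 3 reached 1 TPM (transcripts per 1000000 transcripts) in both libraries, and Gp5 and Gp6 had 0 counts in both. The whole list summed to 10.6 TPM in library 1 and 12.2 in library 2. All 10 neutrophil genes and all 7 monocyte genes exceeded 10 TPM in each library, with sums of 14380 and 13651 TPM for the neutrophil list and 7773 and 10169 TPM for the monocyte list. Basophil genes summed to 184 and 213 TPM, dendritic cell genes to 97.6 and 124, erythroid genes to 110.0 and 51.6, B cell genes to 86.3 and 93.1, and T and NK cell genes to 30.4 and 17.1 TPM. The part of these cell types in the values below was not tested. In such bulk RNA, fewer cells of a type and less RNA per cell cannot be told apart.

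Most of the splicing factor genes were expressed at high levels compared with other protein-coding genes. Of the 55, 53 reached 1 TPM in both libraries, which 42.4% of all nuclear protein-coding genes did. At 10 TPM there were 47, against 16.9% of all such genes, and at 100 TPM there were 8, against 1.62%. The median member stood at 33.0 TPM in library 1 and 34.5 TPM in library 2, and the median of the other protein-coding genes at 0.27 and 0.26 TPM. The 55 genes summed to 3063 and 3268 TPM, or 1.28% and 1.22% of the TPM of protein-coding genes. Nuclear protein-coding genes matched to M21 held 24.0% and 26.8% of all TPM, so each TPM value is a share of a pool that is mostly other rows. Most counts lay in these genes all the same, 37377787 of 42703213 in library 1 and 44809299 of 50532821 in library 2.

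**Figure D1:**
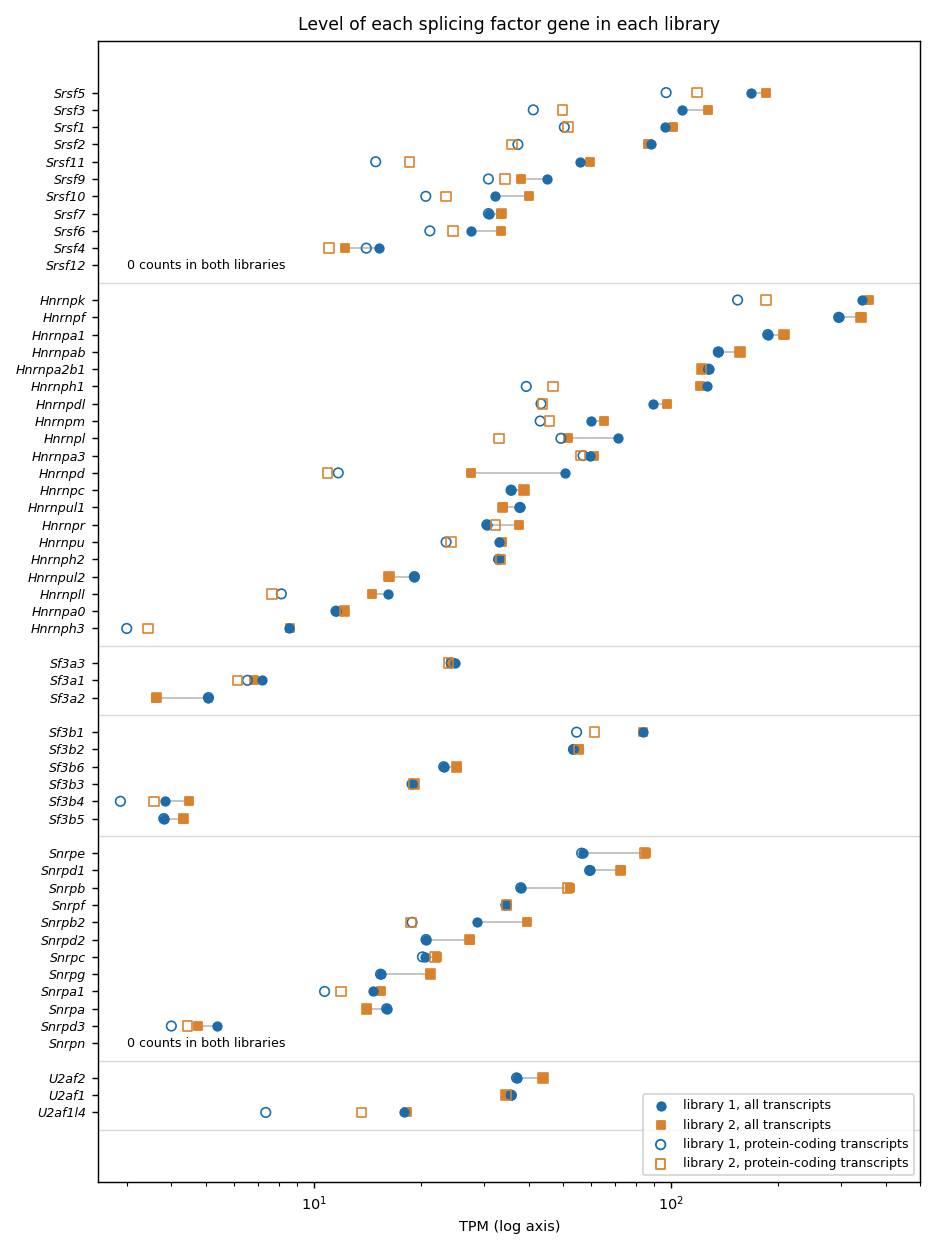
Level in TPM (log axis) of each of the 55 splicing factor genes, by family. Filled marks give all transcripts of a gene in library 1 (circles) and library 2 (squares), joined by a grey line, and open marks give its protein-coding transcripts alone. The open marks lie far to the left of the filled ones for genes such as Srsf11 and Hnrnpd and on top of them for Hnrnpf and Hnrnpa1; Srsf12 and Snrpn had 0 counts.

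Among the SR proteins, Srsf5 was the most abundant, at 167 TPM in library 1 and 185 TPM in library 2. Srsf3, the smallest SR protein, followed at 108 and 127 TPM, and Srsf1, which helps U1 snRNP and U2AF reach splice sites, at 96.1 and 101 TPM. The order of these 3 was the same in both libraries. No read was assigned to Srsf12, and the limit of 3 counts per library puts its level under 0.0180 TPM in library 1 and 0.0160 in library 2 (counting error only). The other 7 Srsf genes lay between 12.2 and 87.9 TPM, the lowest being Srsf4.

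The Hnrnp family held the highest values of all. Hnrnpk, a protein that binds runs of C, had 344 TPM in library 1 and 359 TPM in library 2, rank 112 by mean TPM among all nuclear protein-coding genes. Hnrnpf, which binds runs of G, had 295 and 340.4 TPM. Hnrnpa1, a repressor of exon inclusion, had 187 and 207 TPM. Hnrnpab, Hnrnpa2b1 and Hnrnph1 also exceeded 100 TPM in both libraries. The neighbours Hnrnpa2b1 (128 and 122 TPM, mean 125 ± 4.00, SD, n = 2) and Hnrnph1 (127 and 120.4 TPM, 124 ± 4.48) differed by less than the spread of either over the libraries. The lowest Hnrnp gene was Hnrnph3, a relative of Hnrnpf, at 8.54 and 8.58 TPM.

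The core of U2 snRNP was uneven in TPM. Sf3b1, the large SF3B subunit that clasps the branch point, had 83.7 and 83.6 TPM, Sf3b2 53.4 and 55.2 TPM and Sf3b6, which lies against the branch point, 23.1 and 25.1 TPM. The small subunits Sf3b4 and Sf3b5 had under 5 TPM in both libraries (3.83 and 4.47 TPM, and 3.81 and 4.32 TPM), although their proteins belong to the same complex. In SF3A, Sf3a3 had 24.9 and 24.3 TPM, Sf3a1 had 7.17 and 6.80 TPM, and Sf3a2 had 5.08 and 3.62 TPM. The RNAs of subunits of 1 complex thus spanned a wide range in TPM, which divides by length. Sf3b5 had 1382 and 1775 counts over effective lengths of 3618 and 3605 bases. Sf3b6 had 2068 and 2520 counts over 892 and 879 bases, and Sf3b4 508 and 706 counts over 1325 and 1387 bases. The part of annotated length in this range was not tested.

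The Snrp genes encode the Sm ring common to most spliceosomal snRNPs (Snrpb, Snrpd1, Snrpd2, Snrpd3, Snrpe, Snrpf and Snrpg) and proteins of U1 snRNP (Snrpa, Snrpc) and U2 snRNP (Snrpa1, Snrpb2). The highest were 3 ring genes, Snrpe at 56.7 and 85.4 TPM, Snrpd1 at 59.3 and 72.4 TPM and Snrpb at 38.2 and 52.4 TPM, and the order of Snrpe and Snrpd1 differed between the libraries. The ring gene Snrpd3 was the lowest of those detected by TPM, at 5.36 and 4.75. It had 1184 and 1429 counts over effective lengths of 2203 and 2641 bases, whereas Snrpg had 205 and 295 counts over 133 and 122 bases. Snrpn, an imprinted ring gene known from neurons, likewise had 0 counts, with limits of 0.0168 and 0.0149 TPM. U2af2, which binds the polypyrimidine tract, had 37.0 and 44.0 TPM and U2af1, which reads the AG at the end of an intron, 35.8 and 34.5 TPM. U2af2 was the higher of the pair in both libraries, with means of 40.5 ± 4.90 and 35.2 ± 0.884 TPM (SD, n = 2). U2af1l4, a relative of U2af1, had 17.9 and 18.2 TPM.

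A gene's level and the level of its protein-coding transcripts were often different. The deposited files list 316 transcripts for the 55 genes, and M21 gives 156 of them as protein_coding, 84 as retained_intron, 39 as nonsense_mediated_decay and 36 as processed_transcript, with 1 absent from M21. Retained-intron and processed transcripts have no annotated reading frame, whereas NMD transcripts have one. Counting protein-coding transcripts alone, Hnrnpk stood behind Hnrnpf and Hnrnpa1, at 154 TPM in library 1 and 185 TPM in library 2. Srsf11 took rank 40 of the 55 by coding level, against rank 18 by gene level, with 14.9 and 18.6 coding TPM of 55.6 and 59.6 TPM in all. Hnrnpd, known as AUF1 for its binding to AU-rich elements, took rank 45, against rank 23. In 7 of the 49 members at 5 TPM or more in both libraries, protein-coding transcripts held under 50% of the TPM in both; 8.05% of all genes at that level did the same.

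The share of a gene's TPM in transcripts of type retained_intron or nonsense_mediated_decay, called the nonproductive share here, was taken for those 49 genes. It was 20% or more in both libraries for 17 of them, whereas 14.4% of all protein-coding genes past the same level reached that limit. At 10% there were 18 genes, against 22.9%, and at 50% there were 5 genes, against 4.17%. Retained-intron transcripts alone reached 20% in 12 genes (10.1% of all genes) and NMD transcripts alone in 3 (3.24%). Over all 55 genes, 19.7% of the summed TPM in library 1 and 18.4% in library 2 was nonproductive, compared with 7.45% and 6.77% in the other protein-coding genes. The 6 members under 5 TPM in a library were left out of the counts of shares: Srsf12, Snrpn, Sf3a2, Sf3b4, Sf3b5 and Snrpd3.

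A share above 0 requires that such a transcript be listed. This was so for 26 of the 49 genes (53.1%), and for 51.7% of all genes past the level. Among these 26, 17 reached 20%, against 27.9% of all listed genes, and the median share was 27.8% in library 1 and 25.5% in library 2, compared with 11.0% and 9.70% in the other protein-coding genes. The other 23 members, Hnrnpf, Hnrnpa1 and Srsf7 among them, stand at 0 by construction. They bring the median over all 49 down to 0.17% and 1.14%, beside 0 and 0 for the other genes. The number of listed transcripts also moved with the share. In the 11 members with 4 or more such transcripts the median was 51.5% in library 1 and 48.6% in library 2, and 25.3% and 25.2% in other genes with as many. In the 12 members with 2 or 3 it was 17.2% and 18.4%, and 9.37% and 8.00% in other genes. In the 3 with 1 such transcript it was 1.55% and 1.19%, under the 2.96% and 2.62% of other genes.

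**Figure D2:**
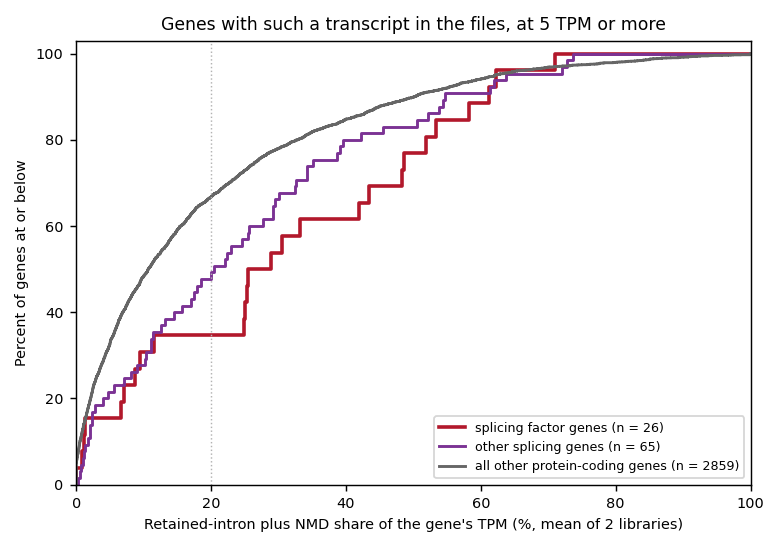
Cumulative percent of genes (vertical axis) at or below a given nonproductive share of TPM (horizontal axis, mean of the libraries), among genes at 5 TPM or more with such a transcript listed. The curve of the 26 splicing factor genes and that of 65 other splicing genes lie to the right of that of the other 2859 protein-coding genes over most of the axis; the dotted line marks 20%.

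**Figure D3:**
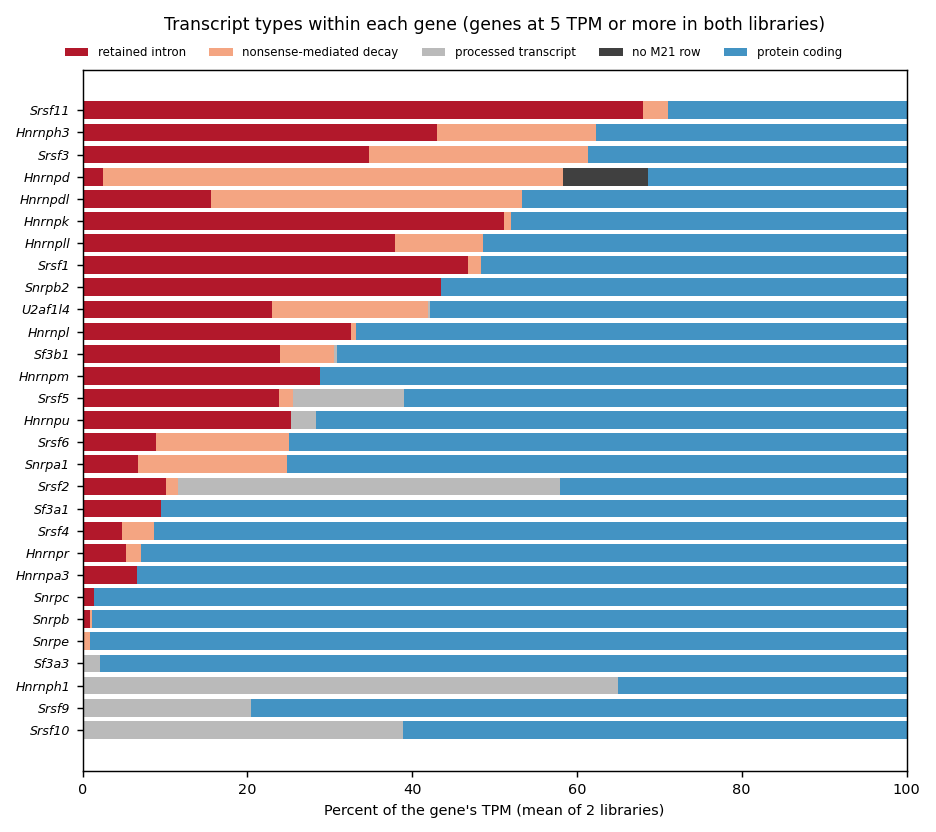
Mean percent of a gene's TPM held by each transcript type, for the splicing factor genes at 5 TPM or more in both libraries that had any transcript outside the protein_coding type. Srsf11 is at the top with most of its TPM in retained-intron transcripts, NMD transcripts are the main nonproductive class of Hnrnpd and Hnrnpdl, and grey bars mark processed transcripts in Hnrnph1, Srsf2, Srsf10 and Srsf9.

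The largest share belonged to Srsf11, an SR-related protein, with 73.1% in library 1 and 68.9% in library 2. Retained-intron transcripts held 70.2% and 65.9%, spread over 7 listed transcripts. The leading one, Srsf11-207, had 22.2 and 20.8 TPM, by that measure more than all coding transcripts of the gene together. By expected counts it had fewer than they did, with 1312 and 1368 of the gene's 8079 and 10169 counts. All nonproductive transcripts of the gene held 55.7% and 50.2% of those counts. The deposited length of Srsf11-207 is 813 bases, against 1670 in M21. Srsf3 (chromosome 17, 29032628 to 29043373, plus strand) ranked 3 among the members at 61.8% and 60.8%, of which 37.8% and 31.7% was retained-intron and 23.9% and 29.1% NMD. Srsf1 (chromosome 11, 88047373 to 88053755, plus strand) had 47.6% and 49.1%, nearly all in the single transcript Srsf1-203 at 44.9 and 46.9 TPM. Srsf5 had 26.6% and 24.5%, led by the retained-intron transcript Srsf5-212 at 25.7 and 32.5 TPM. Shares of these 4 SR protein genes differed between the libraries by less than 5 points each.

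The NMD form of Srsf3 is a textbook case of such control in mouse: Srsf3 protein is known to promote the exon that ends its own reading frame. That exon is the fourth of 7 in Srsf3-201, is 456 nucleotides long, occurs in no coding transcript and places the stop codon 548 nucleotides before the last exon junction. These positions are those of M21, whose length for Srsf3-201 is not the deposited one behind the counts and TPM. Srsf3-201 had 4388 counts and 25.8 TPM in library 1 and 7090 counts and 37.0 TPM in library 2, and the deposited TPM intervals did not overlap. The coding transcript Srsf3-202 had 41.2 and 49.8 TPM, so the NMD transcript stood at more than 0.5 of the coding one in both libraries. The ends of the reading frame in the leading NMD transcripts of 6 members are shown here because the NMD class depends on where the frame stops and on the exon junctions after it. Each line runs from the first coding base of the exon that holds the stop to the stop codon, in capitals, as annotated in GENCODE M21 on mm10.
Srsf3-201, chr17:29039454-29039487, plus strand: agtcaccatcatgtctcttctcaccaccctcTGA
Srsf6-201, chr2:162932815-162932966, plus strand: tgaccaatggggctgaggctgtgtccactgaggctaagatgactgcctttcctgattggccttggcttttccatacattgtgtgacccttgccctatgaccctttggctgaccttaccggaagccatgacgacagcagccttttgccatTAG
Hnrnpd-208, chr5:99962545-99962612, minus strand: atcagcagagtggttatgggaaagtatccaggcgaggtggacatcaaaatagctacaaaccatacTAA
Hnrnph3-204, chr10:63018122-63018225, minus strand: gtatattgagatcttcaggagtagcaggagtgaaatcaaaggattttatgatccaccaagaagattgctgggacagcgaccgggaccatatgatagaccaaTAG
Hnrnpll-203, chr17:80044976-80045022, minus strand: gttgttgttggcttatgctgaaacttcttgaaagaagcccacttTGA
Sf3b1-208, chr1:55014905-55014924, minus strand: gcttctattctgctgctTGA

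These 6 fall into 2 kinds. In Srsf3-201, Hnrnpll-203 and Sf3b1-208 the stop lies in an exon, and at a position, that no coding transcript uses. In Srsf6-201, Hnrnpd-208 and Hnrnph3-204 some coding transcript ends at the same stop codon, so the stop itself is not particular to the NMD form. The last exon junction lies 534, 137 and 609 nucleotides after it in these 3. The stop lies in exon 3 of 7, 6 of 8 and 3 of 9, and the frames hold 135, 215 and 71 amino acids. The stop of Hnrnpdl-205, the leading transcript of Hnrnpdl, lies in its first exon, and those of the leading NMD transcripts of Snrpa1 and U2af1l4 come within 10 bases of an exon's start; they are not shown. Srsf6-201 had 3.41 TPM in library 1 and 6.69 TPM in library 2, 12.3% and 19.9% of Srsf6. In Srsf6 the total nonproductive share was 23.3% and 26.8%.

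**Figure D4:**
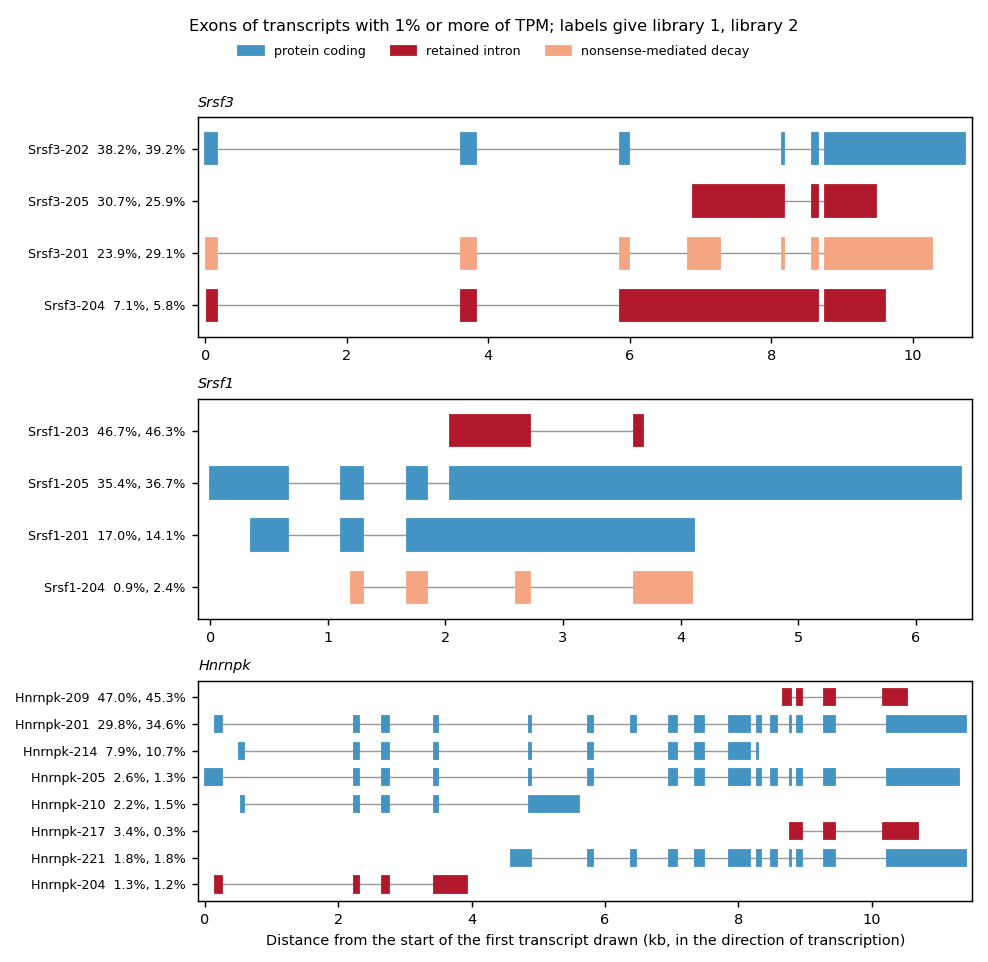
Exons (boxes) and introns (lines) of the transcripts with 1% or more of the TPM of Srsf3, Srsf1 and Hnrnpk, drawn to scale in the direction of transcription (horizontal axis in kb) from M21. Labels give the percent of TPM in library 1 and library 2. The extra exon of Srsf3-201 lies in an intron of Srsf3-202, and the retained-intron transcripts Srsf1-203 and Hnrnpk-209 are short pieces of their genes.

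Among the Hnrnp genes, Hnrnph3 had the highest share, 64.8% in library 1 and 59.9% in library 2, on 958 and 1126 counts in all. Hnrnpd followed with 58.7% and 57.8%, of which NMD transcripts made 55.7% and 56.0%. Its paralogue Hnrnpdl had 51.5% and 55.1%, again mostly NMD transcripts (33.4% and 42.2%). In these related genes an NMD transcript was the most abundant of all: Hnrnpd-208 at 21.1 and 12.9 TPM, and Hnrnpdl-205 at 28.6 and 40.9 TPM. For both transcripts the deposited TPM intervals of the libraries did not overlap, and their TPM moved in opposite directions. The share of each in its own gene was higher in library 2, however. Hnrnpd-208 held 41.75% of Hnrnpd in library 1 and 46.53% in library 2, and Hnrnpdl-205 held 32.03% and 41.76% of Hnrnpdl. Hnrnpk had 55.3% and 48.6%, of which Hnrnpk-209 made 47.0% and 45.3% at 162 and 163 TPM, the highest level of any retained-intron or NMD transcript of the family. Hnrnpll, known for its control of Ptprc (CD45) splicing in lymphocytes, had 49.8% and 47.5%. Hnrnpl, which binds CA repeats, had 30.7% and 35.7%, and Hnrnpm 27.9% and 29.8%.

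Past 5 TPM, a share of 20% in both libraries was reached by 0 of 2 Sf3a, 1 of 4 Sf3b, 2 of 10 Snrp and 1 of 3 U2af genes. Of all protein-coding genes past that level, 14.4% reached it. Sf3b1 had 34.9% in library 1 and 26.0% in library 2, led by the retained-intron transcript Sf3b1-203 at 13.5 and 12.6 TPM. Snrpb2 had 34.1% and 52.8%, mainly from the retained-intron transcript Snrpb2-203 at 8.19 and 20.5 TPM. Snrpa1 had 27.0% and 22.7%. U2af1l4 had 59.0% and 25.0%, but on 983 and 1245 counts over 38 listed transcripts, 4 of which M21 assigns to another gene on the same strand (Gm49396). Of the Sm ring genes past 5 TPM, Snrpb had 0.44% and 1.73%, Snrpe 0.58% and 1.14%, and Snrpd1, Snrpd2, Snrpf and Snrpg had none listed. The ring gene Snrpd3, under 5 TPM in library 2, had 25.45% and 6.4%, on 60.4 and 14.9 counts of its retained-intron transcript. U2af1, U2af2, Sf3b2, Sf3b3 and Sf3b6 had none listed.

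Just above the limit of 20% stood Srsf6, Hnrnpu (27.6% and 23.0%) and Snrpa1, and just below it Srsf2 (11.2% and 11.8%), Sf3a1 (8.95% and 10.1%) and Srsf4 (7.59% and 9.75%). None of the 49 genes past 5 TPM had a mean share between the 11.5% of Srsf2 and the 24.8% of Snrpa1, but 2 members left out by that level did, Sf3b4 (24.8% and 19.8%) and Snrpd3. The lowest members with such a transcript listed were Snrpa at 0 in both libraries, Snrpe, Snrpb, Snrpc (1.55% and 1.19%), Hnrnpa3 (4.62% and 8.58%) and Hnrnpr (0.17% and 14.03%).

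What the class retained_intron holds differed from gene to gene. Of the 84 such transcripts, 31 had a mean share of 5% or more, and 27 of these have the same length in the deposited tables as in M21. Of the 27, 13 keep at least 1 whole intron of a coding transcript and 14 do not. The part of their length outside the exons of every coding transcript (called intronic here) ran from 0 to 82.3%, with a median of 52.2%. The other 4, Hnrnpm-203, Srsf11-207, Srsf3-205 and Srsf3-204, are left out of these counts. Hnrnpk-209 was at the low end, with 107 of its 731 bases intronic. Srsf1-203 had 0 intronic bases of 759, because the 378-base intron it keeps lies inside an exon of another coding transcript. In the M21 models of all 84, 43 different whole introns were kept, and some overlap others of the same gene, as in U2af1l4, Srsf2 and Srsf6. An entry in Srsf5-212 spans only 21 bases. Of the 43, 27 are shorter than the median coding intron of their gene, with no share over all introns beside it. Each of the 43 introns begins with GT and ends with AG. The ends of 4 of them, in transcripts that lead or recur in the results, are given with 3 exon bases before the 5′ splice site and 3 after the 3′ splice site, and with the first and last 2 intron bases in capitals (GENCODE M21, mm10).
Srsf1-203, intron chr11:88049599-88049976, plus strand, 5′ end: ctcGTacat
Srsf1-203, same intron, 3′ end: tttcatgtgtctttctgtAGaca
Srsf3-204, intron chr17:29038625-29040774, plus strand, 5′ end: cagGTactt
Srsf3-204, same intron, 3′ end: tttactgtttctgcttctAGatc
Hnrnph3-206, intron chr10:63017611-63018040, minus strand, 5′ end: gtgGTatgt
Hnrnph3-206, same intron, 3′ end: tttccttccattttatacAGgct
Sf3b1-203, intron chr1:55014563-55016375, minus strand, 5′ end: atgGTaatt
Sf3b1-203, same intron, 3′ end: gttgctgttcttttctgcAGgag

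In 2 of these genes the retained intron and the NMD exon coincide. The intron of 2150 bases kept by Srsf3-204 contains the whole extra exon of Srsf3-201 (29039454 to 29039909). The intron of 1813 bases kept by Sf3b1-203 contains the whole extra exon of Sf3b1-208 (55014869 to 55014924), which is 56 bases long. Srsf1 differs: the exon that holds the stop of the minor NMD transcript Srsf1-204 begins at 88049977, the base after the intron kept by Srsf1-203. As 1 coding transcript splices out that intron, it has an exon with the same start. Srsf3-204 had 7.08% of Srsf3 in library 1 and 5.79% in library 2, and Srsf1-204 had 0.86% and 2.38% of Srsf1.

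The measure of the share matters here, since TPM divides by length and many of these transcripts are short. When the share was taken of expected counts, 10 of the 17 genes stayed at 20% or more and no other member joined them; 8.59% of all genes passed the limit on that measure. Srsf1 then had 10.1% and 10.3%, Hnrnpk 24.0% and 19.1%, Hnrnpm 6.82% and 7.07% and Hnrnpu 2.61% and 2.20%. Srsf5 had 44.9% and 41.6%, more than by TPM. Srsf11 (55.7% and 50.2%), Srsf3 (49.7% and 49.1%), Hnrnpd (55.8% and 40.1%) and Hnrnpll (52.3% and 50.4%) were high on both measures. The transcript models also changed between annotations. The deposited length of 34 of the 316 transcripts was not that of M21, including Srsf3-201 (1919 against 2594 bases), Srsf3-204 (3986 against 4010 bases), Srsf3-205, Srsf11-207 and Hnrnpm-203.

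Processed transcripts, which carry neither a reading frame nor a retained intron in the annotation, took 20% or more of TPM in both libraries in 3 members, against 5.79% of all genes. Hnrnph1 had 68.9% of its TPM in such transcripts in library 1 and 61.1% in library 2, so that 39.4 and 46.9 TPM were coding. Of its 18 listed transcripts 15 are of this type, some with 0 counts in both libraries. Hnrnph1-204 had 6253 counts in library 1 and 880 in library 2, and Hnrnph1-205 had 0 and 5298. Srsf2, which is also called SC35, had 46.3% and 46.5%, all in Srsf2-205 at 40.7 and 40.1 TPM, a transcript of 433 bases. In Srsf10, a splicing repressor in its dephosphorylated form, they made 36.1% and 41.6%. Over all 53 detected members, the most abundant transcript by mean share of the libraries was protein_coding in 46, retained_intron in 4 (Hnrnph3, Hnrnpk, Srsf1 and Srsf11), nonsense_mediated_decay in 2 (Hnrnpd and Hnrnpdl) and processed_transcript in 1 (Srsf2). In each library alone, 5 were led by a retained-intron transcript: the same 4 and U2af1l4 in library 1 (U2af1l4-212, 31.6%), and the same 4 and Snrpb2 in library 2 (Snrpb2-203, 51.6%).

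Between the libraries, the shares of most members were close. Of the 26 members with a listed transcript, 3 differed by 10 points or more (U2af1l4, Snrpb2 and Hnrnpr), against 18.5% of all such genes. The share was higher in library 1 in 12 members, higher in library 2 in 13 and 0 in both in 1. In Hnrnpr the difference came mainly from Hnrnpr-208, with 0 counts in library 1 and 100.3 counts in library 2. In U2af1l4 it came mainly from U2af1l4-212, with 167 counts in library 1 and 0 in library 2. Of the 123 retained-intron and NMD transcripts, 46 reached 1 TPM in both libraries; the deposited intervals overlapped for 24 of them, lay higher in library 1 for 14 and higher in library 2 for 8.

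**Figure D5:**
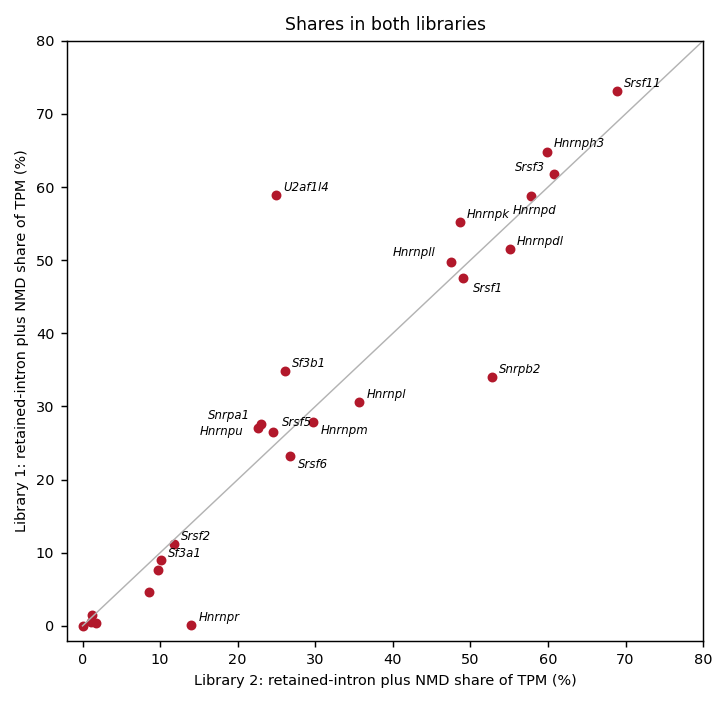
Nonproductive share of TPM in library 1 (vertical axis, percent) against library 2 (horizontal axis, percent) for the 26 splicing factor genes at 5 TPM or more with such a transcript listed; the grey line marks equal shares. Most points lie near the line, and U2af1l4, Snrpb2 and Hnrnpr lie farthest from it.

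Gene levels differed little between the libraries. After scaling, none of the 53 members with a mean count of 100 or more differed by 1.5-fold, while 8.37% of all protein-coding genes past that count did, 4.71% being higher and 3.67% lower in library 1. The median size of the log2 ratio was 0.10 in members and 0.17 in the other genes. The lowest ratios of library 1 over library 2 were those of 4 Sm ring genes: Snrpe at 0.735 (95% interval of counting error 0.690 to 0.782), Snrpb at 0.775, Snrpd2 at 0.812 and Snrpg at 0.824. The other ring genes gave 0.872 for Snrpd1, 0.983 for Snrpd3 and 1.06 for Snrpf. The labelled lower size limit was 221 nucleotides in library 1 and 200 in library 2, and the effective length of Snrpe was 289.6 and 273 bases; their part in these ratios was not tested. The highest ratios were those of Hnrnpd at 1.34 (1.28 to 1.40), Srsf4 at 1.30, Hnrnpul2 at 1.23 and Snrpa at 1.23. With 1 library on each side these ratios have no replicate check, and the intervals cover counting error only.

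High nonproductive shares also occurred in other genes of the pathway. Of 128 other splicing and RNA decay genes in 7 lists, 107 passed 5 TPM, 65 of these had such a transcript listed, and 28 reached 20% in both libraries. That is 26.2% of the 107 and 43.1% of the 65, against 14.4% of all genes past the level and 27.9% of those with such a transcript listed. By list these were 7 of 22 other U1, U2, U5 and tri-snRNP proteins, 1 of 5 minor spliceosome proteins, 1 of 6 Lsm ring proteins, 4 of 18 branch point and second step factors, 10 of 27 SR-related and other regulators, 3 of 10 SR protein kinases and transport factors and 2 of 19 NMD and exon junction factors. The Lsm ring (16.7%) was near the share of all genes and the NMD and exon junction factors (10.5%) were below it. Their median share over the 65 was 21.5% in library 1 and 19.3% in library 2, compared with the 27.8% and 25.5% of the 26 members. Over all genes past the level, members with no such transcript included, the order of the medians was the reverse, 0.17% and 1.14% in members and 3% and 2.42% in the other splicing genes. Clk1 and Clk4, kinases that phosphorylate SR proteins, had 68.0% and 59.4%, and 51.9% and 52.5%. Of the SR-related and other regulators, Tial1 had 72.8% and 72.9%. Bcas2, a part of the PRP19 complex, had 77.3% and 70.2%, mostly NMD transcripts.

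The other named genes of these lists ranged widely. Luc7l2 and Usp39 led the other U1, U2, U5 and tri-snRNP proteins with 55.2% and 52.6%, and 49.0% and 52.0%, while Luc7l3 was the most abundant of them at 70.2 and 79.9 TPM. Sf1, which binds the branch point before U2 snRNP does, had 31.0% and 39.2%. In the minor spliceosome Zcrb1 had 53.7% and 37.3%, and Rnpc3 13.5% and 7.26%. In the Lsm ring Lsm4 had 44.3% and 65.1%, Lsm3 2.32% and 23.9%, and Lsm5 3.39% and 1.37%. Among the NMD and exon junction factors Smg5 had 50.2% and 29.0%, Acin1 37.9% and 30.6%, and Magoh, at 54.2 and 57.2 TPM, had no such transcript listed. Mbnl1 was the most abundant of all these genes at 278 and 295 TPM, with a share of 9.88% and 8.28%; Sfpq had 171 and 156 TPM and none listed, and Syf2 71.0 and 94.1 TPM and 6.80% and 4.48%.

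Reads of neighbours could reach some of these values. Another annotated gene overlaps 28 of the 55 members, on the same strand in 12 and on the opposite strand in 22. On the opposite strand of Srsf2 lie Mettl23 (10.6 and 10.5 TPM) and Mfsd11 (6.62 and 4.85 TPM), and on that of Hnrnpu lies Cox20 (34.0 and 43.4 TPM). Psenen (43.0 and 50.5 TPM) lies opposite U2af1l4, which itself had 983 and 1245 counts. On the same strand March2 overlaps Hnrnpm (10.6 and 12.9 TPM). The strand setting used in counting was not given in the sources used here, so how far such pairs share reads was not tested.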

How the data were processed

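Total RNA-seq tables of 2 libraries in 1 group were used, one row per gene and one per transcript. Reads were mapped to mm10 with GENCODE M4, per the text file that the authors deposited beside each table; the aligner and quantifier are not given in the sources used here. Deposited expected counts are estimated reads per feature, not normalized. The deposited TPM and FPKM values are scaled for length and library total, over all rows of a table. Shares came from the deposited percent per transcript of its gene's TPM, and a deposited posterior mean TPM, an interval for TPM of unstated level and effective lengths in bases were also used. The ratio of library 1 to library 2 was computed here and is no deposited value.

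Symbols, gene and transcript types, exons and sequences came from GENCODE M21 (same build), matched by ID without version; 42462 of 43346 mouse gene IDs matched. A type given in M21 may not be the one of M4. Shares were summed for genes past 5 TPM in each library. For ratios, expected counts were rounded and scaled with TMM from edgeR 4.0.16 in R 4.3.3 (DESeq2 1.42.0 size factors as an alternative); ratios at a mean count of 100 or more were called at 1.5-fold, with an exact conditional binomial 95% interval. Other values were computed in Python 3.11.15 with pandas 2.3.3, numpy 2.4.6 and SciPy 1.17.1 and drawn with matplotlib 3.10.9. Only the ratio calls with their intervals and the summing of shares were tested on simulated data. With 1 group no test was made and no p-value is given. Intervals and limits cover counting error only, because PCR copies of a molecule cannot be told from separate molecules here.

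The members, the 7 lists of 128 other splicing genes and the 8 marker lists were chosen with earlier results of these data known. Named were the 3 highest and the lowest gene of each family by TPM, genes with 0 counts, the 14 highest and 6 lowest shares, the 3 genes on either side of 20%, the 4 most extreme ratios in each direction, the 4 largest differences in share and the 2 highest of each list by TPM and by share; other members are named to account for each. Some genes that this rule takes from the lists are not reported here. No paper was used.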

Additional observations from a re-analysis of the deposited data

Results flagged for a closer look

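Signal was found in a member transcript without a type and in pseudogenes that are not among the member genes. A transcript of Hnrnpd that the deposited tables list (ENSMUST00000167035, 483 bases) has no entry in GENCODE M21 and so no type. Its reads are part of the level of Hnrnpd, of its library ratio and of the total behind its shares. They enter no share of a transcript type. It had 237.58 counts in library 1 and 20.67 in library 2, which is 18.04% and 2.64% of the TPM of Hnrnpd, and the deposited TPM intervals of the libraries, 7.49 to 10.5 and 0.304 to 1.26, did not overlap. Processed pseudogenes whose symbols share the prefixes were also above the limit of 3 counts: Hnrnpa1l2-ps had 17.84 and 16.4 counts (0.24 and 0.20 TPM), and Snrpert had 73.69 and 83.97 counts (10.2 and 11.8 TPM). How many of these reads belong to the parent genes was not tested.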

How the results depend on the processing

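No paired analysis was possible because the labels give 1 group. The median level of 34.6 TPM kept within the spread of the libraries as posterior mean TPM, after rescaling to protein-coding genes and without low members, was 33.0 to 34.5 with a library left out, and was 79.7 as FPKM. The mean of log2(TPM + 1), 5.03, became 4.85 with a pseudocount of 0.1. The count at 1.5-fold between the libraries, 0, was 2 by the ratio of deposited TPM (Hnrnpd at 1.83 and Snrpe at 0.664) and 0 by the other scalings and count limits. The median nonproductive share of 0.86% became 0 at 10 TPM, without a level filter, for retained_intron alone and for nonsense_mediated_decay alone, 6.60% with processed transcripts added, and 27.2% over genes with such a transcript listed (chosen after seeing the data); with a library left out it was 0.17% to 1.14%. The count of 17 genes at a share of 20% was 10 by expected counts and 5 at a limit of 50%, 15 to 18 under other settings, and 17 with either library left out. The excess of that median over other protein-coding genes, 0.86 points, was 16.3 among listed genes, −1.88 against the other splicing genes, where the direction reversed, and 0.17 to 1.14 with a library left out. The cause of these moves was not tested, except that 0 enters for every gene with no such transcript listed. Of the 14 highest shares, 11 were lower and 3 higher by expected counts, from 6.95% to 53.0%. The shares of Hnrnph3 rest on 958 and 1126 counts and those of U2af1l4 on 983 and 1245, which limits their precision.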
